A study of Homo sapiens with 5 samples.

Results

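HSF1 and MYC peaks were examined at 10 genes that mark ovarian carcinoma or its cell lineage: PAX8, SOX17, WT1, MECOM, MUC16, MSLN, FOLR1, EPCAM, ESR1 and EMX2. The genes were taken by name, and every peak that shared at least 1 bp with the stretch from 5 kb upstream of the annotated gene start to the gene end was assigned to the gene. They are 10 of the 20033 protein-coding genes on chromosomes 1 to 22, X and Y in GENCODE release 44. The data are CUT&RUN peak lists, in which an antibody guides a nuclease to a DNA-bound protein and the released fragments are sequenced. All libraries came from untreated, proliferating OVCAR8 cells, an established human ovarian tumor epithelial cell line in which, by the study's account, both HSF1 and MYC are amplified, briefly fixed with formaldehyde. The groups were HSF1 antibody (2 libraries), MYC antibody (2 libraries) and an IgG control antibody (1 library), and all 4 HSF1 and MYC lists were called against that 1 IgG library. A single cell line was used, and the labels do not say whether the replicates came from separate cultures.

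PAX8, SOX17, WT1, MECOM and EMX2 encode transcription factors. PAX8 and SOX17 act in the Müllerian duct and its derivatives, including the secretory epithelium of the fallopian tube, and PAX8 and WT1 are used to identify serous carcinoma. MUC16 (the CA125 antigen), MSLN (mesothelin, to which MUC16 binds), FOLR1 (folate receptor alpha) and EPCAM (an epithelial adhesion molecule) encode cell surface proteins, and ESR1 encodes estrogen receptor alpha. HSF1 binds heat shock elements, which are inverted repeats of GAA units, and is best known for inducing chaperone genes. MYC binds as a dimer with MAX to E-boxes, mostly at promoters of active genes. Peaks measure where these factors were found on DNA and not how much RNA each gene made, so whether OVCAR8 cells express the 10 genes was not measured here.

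Of the 10 genes, 4 had any peak and 6 had none in any list, where 34.7% of all protein-coding genes had none. The 4 lists held 22 peaks in the 10 windows, which merged into 10 sites: 4 at PAX8, 3 at EPCAM, 2 at ESR1 and 1 at MSLN. PAX8 held 12 of the 22 peaks. It was the gene with peaks of both factors in both lists of each, where the share of all protein-coding genes was 6.45%. Sites are numbered along the chromosome within each gene. A fold enrichment is the authors' ratio of the antibody fragments stacked at a summit (the pileup) to the local IgG background. It was ranked within a list and set beside the value of the other list of the same factor. Fold enrichments of HSF1 and their ranks were not weighed against those of MYC, since antibodies and thresholds differ between the factors.

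Sequences around the summits at PAX8, ESR1 and MSLN are shown first, for sites that recurred in both lists of a factor and for the ESR1 summit with a 3-unit heat shock element, because most of the results turn on them. All are on the plus strand of GRCh38, 5′ to 3′, with capitals marking a match to a motif. The motifs searched, on both strands, were the heat shock element of 3 units (GAANNTTCNNGAA or TTCNNGAANNTTC), the 2-unit part of it (GAANNTTC or TTCNNGAA), which every 3-unit match also holds, and the E-box CACGTG. A match is a match of letters and not a measured binding site.
PAX8 site 4, chr2:113283722-113284021, between the HSF1 summits 5 kb upstream of the gene, heat shock element in capitals: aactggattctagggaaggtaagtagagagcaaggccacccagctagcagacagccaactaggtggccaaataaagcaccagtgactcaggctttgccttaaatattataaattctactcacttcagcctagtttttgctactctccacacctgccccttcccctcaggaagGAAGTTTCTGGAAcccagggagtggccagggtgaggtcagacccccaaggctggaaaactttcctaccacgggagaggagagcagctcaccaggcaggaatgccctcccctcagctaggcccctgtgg
PAX8 site 3, chr2:113249363-113249662, between the HSF1 summits in intron 2, heat shock element in capitals: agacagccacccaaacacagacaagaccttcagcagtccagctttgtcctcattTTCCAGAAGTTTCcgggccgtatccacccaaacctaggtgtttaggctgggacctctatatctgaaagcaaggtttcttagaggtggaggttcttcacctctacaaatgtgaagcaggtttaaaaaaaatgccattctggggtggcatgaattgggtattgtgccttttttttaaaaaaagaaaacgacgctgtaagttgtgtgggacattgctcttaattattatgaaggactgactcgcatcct
PAX8 site 2, chr2:113241088-113241387, between the MYC summits in intron 7, no motif: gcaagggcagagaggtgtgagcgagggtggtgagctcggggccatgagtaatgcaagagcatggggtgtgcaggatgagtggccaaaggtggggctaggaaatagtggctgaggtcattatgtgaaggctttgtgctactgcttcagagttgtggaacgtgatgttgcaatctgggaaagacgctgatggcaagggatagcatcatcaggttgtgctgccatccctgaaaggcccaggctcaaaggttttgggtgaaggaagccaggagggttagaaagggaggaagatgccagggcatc
ESR1 site 2, chr6:152095028-152095327, between the HSF1 summits in intron 7, 2-unit element in capitals: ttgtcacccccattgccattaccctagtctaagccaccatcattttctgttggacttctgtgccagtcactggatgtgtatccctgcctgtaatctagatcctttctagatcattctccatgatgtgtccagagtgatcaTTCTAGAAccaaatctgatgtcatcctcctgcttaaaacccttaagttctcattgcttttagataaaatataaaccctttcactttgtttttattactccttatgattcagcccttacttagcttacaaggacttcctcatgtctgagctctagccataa
ESR1 site 1, chr6:152054683-152054883, around the summit of HSF1 replicate 1 in intron 5, heat shock element in capitals: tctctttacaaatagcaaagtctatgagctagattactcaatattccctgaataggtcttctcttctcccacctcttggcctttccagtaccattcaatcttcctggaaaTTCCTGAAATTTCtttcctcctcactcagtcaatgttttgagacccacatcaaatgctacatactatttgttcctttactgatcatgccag
MSLN site 1, the E-box at chr16:761011-761016 with its neighboring bases: cctttagaggccCACGTGtgggcattggcc

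PAX8, with 7 of the 10 HSF1 peaks and 5 of the 12 MYC peaks at these genes, lies on the minus strand of chromosome 2 at chr2:113215997-113278921. Its introns overlap PAX8-AS1, a long noncoding RNA gene on the opposite strand, so a peak there belongs to the locus and not to one of the 2 genes. The strongest HSF1 signal at any of the 10 genes was PAX8 site 4, at chr2:113282862-113284441, which overlaps no annotated gene. The fold enrichment of HSF1 was 16.9 in replicate 1 and 40.1 in replicate 2, with pileups of 89 and 133 fragments. These peaks stood above 98.1% and 99.4% of the peaks of their lists by fold, ranked 125 of 6421 and 26 of 4459. MYC was called at the same place with fold enrichments of 10.5 and 7.06 and pileups of 61 and 29 fragments. Within the MYC lists these were ordinary or low, above 36.3% of the replicate 1 list and 10.1% of the replicate 2 list. The HSF1 fold enrichments differed between the 2 replicates, and within each factor both lists held the peak.

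**Figure D1:**
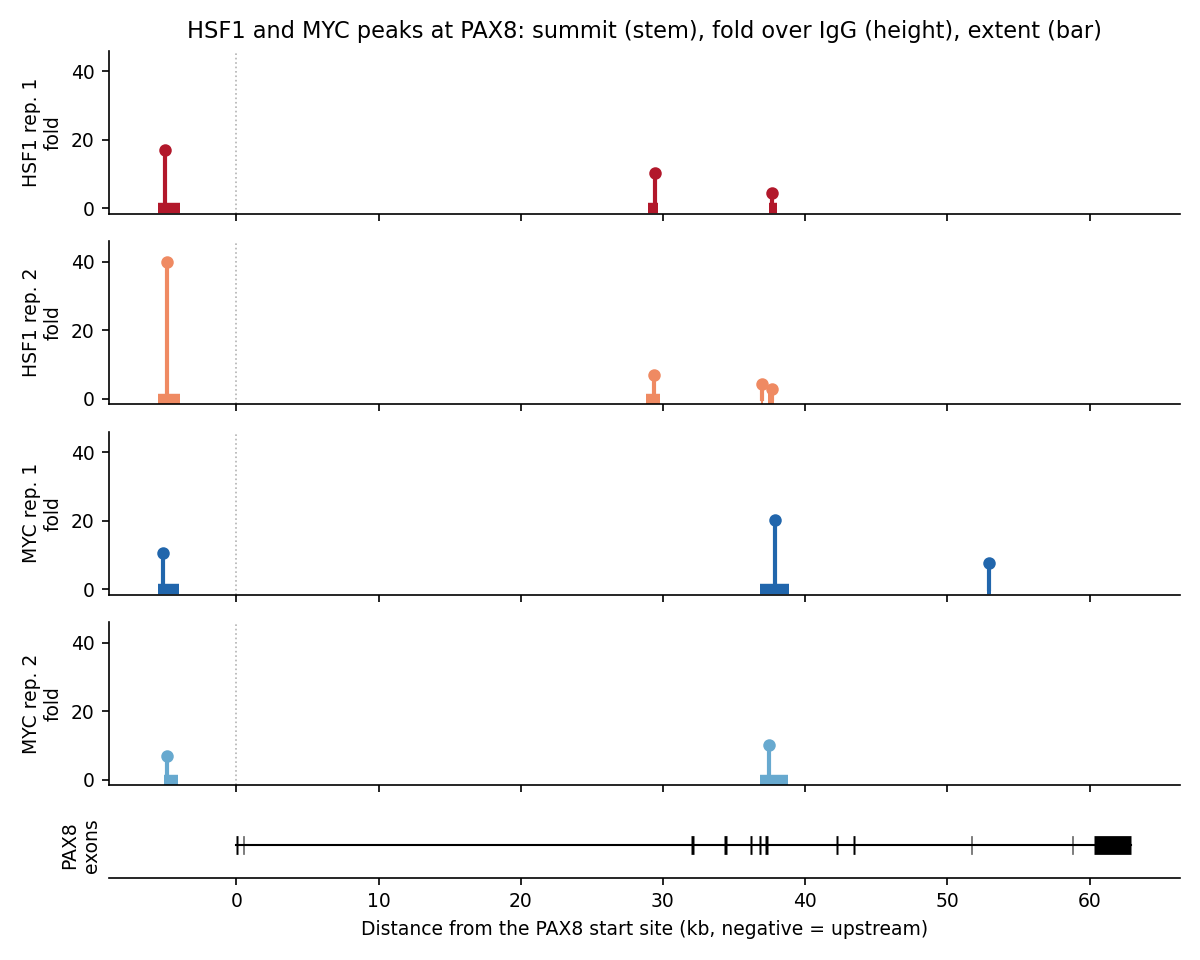
HSF1 and MYC peaks at PAX8, with the distance from the PAX8 start site in kb on the horizontal axis and the fold enrichment over IgG on the vertical axis, 1 panel per list (rep. is replicate). Stems mark summits, bars at the base the extent of each peak, and black boxes the exons of the canonical transcript. The group of peaks near 5 kb upstream and the group in the middle of the gene appear in all 4 lists, with the tallest stem of each HSF1 list upstream and the tallest stem of each MYC list inside the gene.

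The summits of PAX8 site 4 were between 4863 and 5178 bp upstream of the PAX8 start, which places 2 of the 4 summits inside the 5 kb limit and 2 just outside it, whereas all 4 peaks reach into the window. HSF1 replicate 1 had its summit 5038 bp upstream and HSF1 replicate 2 had its summit 4863 bp upstream. MYC replicate 1 had its summit 5178 bp upstream and MYC replicate 2 had its summit 4886 bp upstream. The distance between the summits of the 2 HSF1 lists was 175 bp and that between the 2 MYC lists 292 bp. HSF1 and MYC summits were 23 to 315 bp apart, so the summits of the factors lay no further from each other than about the distance between replicates of MYC. A 3-unit heat shock element, the one printed above, lies at chr2:113283894-113283906 inside all 4 peaks. Its centre was 59 bp and 116 bp from the HSF1 summits and 199 bp and 93 bp from the MYC summits. An E-box at chr2:113283204-113283209 also lies in the site, 578 bp from the nearest summit. Of the 32-base words of the site, 90.7% occur once in the genome and no word occurs more than 3 times.

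PAX8 site 2, at chr2:113240025-113242070, had the strongest MYC signal of the gene, with fold enrichments of 20.2 and 10.3 and pileups of 91 and 56 fragments. These peaks were 2046 and 1959 bp wide, stood above 86.6% and 47.7% of the peaks of their MYC lists, and had their summits in intron 7 of the canonical transcript. HSF1 was also called there, at low fold enrichment: 4.61 in replicate 1, and 3.02 and 4.33 for a pair of separate peaks in replicate 2. The HSF1 peaks stood above 40.1% of replicate 1 and above 1.66% and 24.0% of replicate 2. The −log10 p-values of the replicate 2 peaks were 5.70 and 6.14, which passes the HSF1 threshold of 1e-04 and would not pass the MYC threshold of 1e-10, whereas the peak of replicate 1 reached 13.2. The site holds the start of 1 shorter annotated PAX8 transcript, and one of the HSF1 replicate 2 summits lies 165 bp upstream of that start. It was the one HSF1 peak among the 10 genes that counted as a promoter peak, defined as a summit from 1000 bp upstream to 100 bp downstream of any annotated start of the gene. No heat shock element was found within 100 bp of these summits, and an E-box at chr2:113241842-113241847 had its centre 100 bp from the nearest summit, that of an HSF1 peak, and so did not lie wholly within this distance.

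PAX8 site 3, at chr2:113249135-113250082 in intron 2, was called for HSF1 and in neither MYC list. The fold enrichments were 10.4 and 6.95 with pileups of 23 and 14 fragments, above 94.3% and 74.3% of the peaks of the lists. The HSF1 summits were 22 bp apart, 1265 and 1243 bp upstream of the nearest annotated start, which is one of PAX8-AS1. A 3-unit heat shock element at chr2:113249417-113249429 was centred 78 and 100 bp from these summits. Of its 32-base words, 92.3% occur once in the genome, and the most frequent occurs 88196 times, so part of the site is repeated sequence. PAX8 site 1, at chr2:113225836-113226101 in intron 10, was called in MYC replicate 1 alone with a fold enrichment of 7.64 and a pileup of 13 fragments, above 8.41% of that list. At the annotated start of the longest PAX8 transcripts no list held a peak, so all peaks of the gene were upstream of it or inside the gene.

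**Figure D2:**
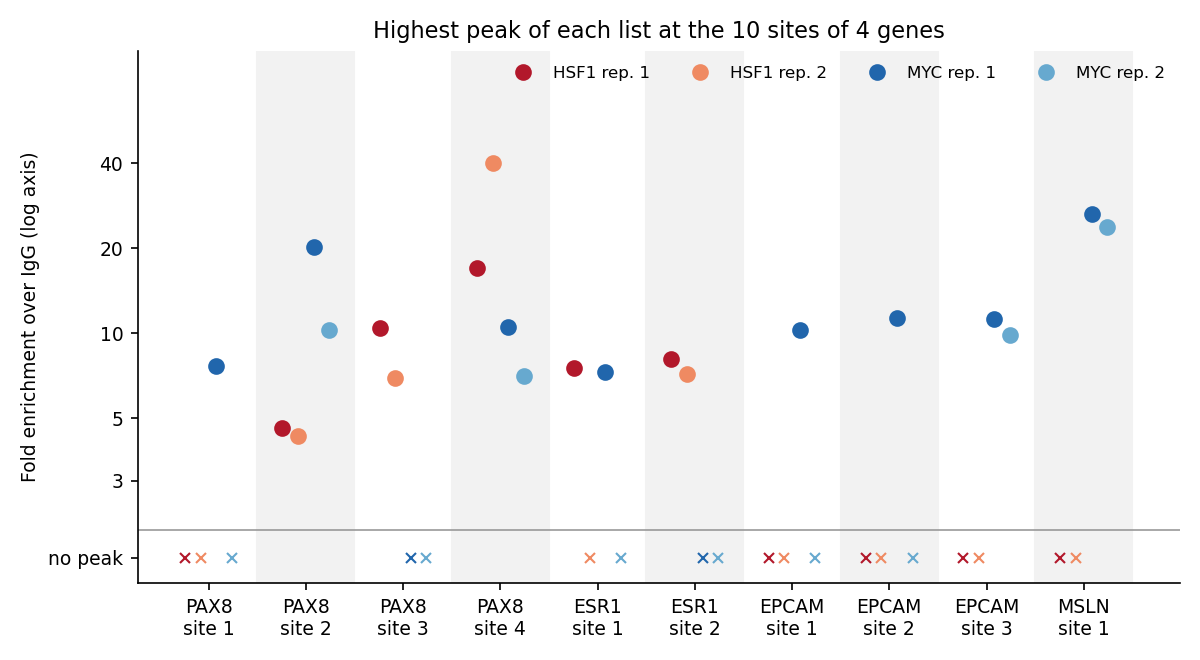
Fold enrichment over IgG (log axis) of the highest peak of each list at the 10 sites, with 1 point per list and crosses in the bottom row for a list that held no peak there. The highest HSF1 points of both lists are at PAX8 site 4, the highest MYC points of both lists are at MSLN, and the MSLN site and the 3 EPCAM sites carry MYC points alone.

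ESR1, the largest of the genes with a peak, was the other gene with HSF1 in both lists. ESR1 site 2, at chr6:152094832-152095483 in intron 7, had HSF1 fold enrichments of 8.12 and 7.17 and pileups of 12 and 10 fragments. These peaks stood above 88.3% and 75.8% of the peaks of their lists by fold. Their pileups were close to the list medians of 11 and 10 fragments. Neither MYC list held a peak at the site. The summits were 140 bp apart, with a 2-unit element between them at chr6:152095168-152095175. The nearest annotated start was not one of ESR1 but that of an unnamed long noncoding RNA gene (ENSG00000287914), 1238 and 1098 bp away. ESR1 site 1, at chr6:152054476-152054935 in intron 5, appeared in 1 list of each factor. HSF1 replicate 1 reached a fold enrichment of 7.50 there (pileup 11) and MYC replicate 1 reached 7.29 (pileup 16). The HSF1 peak stood above 84.7% of its list and the MYC peak above 5.91% of its list. These shares cannot be compared between the factors, since the MYC lists were called at a stricter p-value threshold. The −log10 p-value from the peak calling was 11.6 for the HSF1 peak and 13.0 for the MYC peak. The peaks shared 265 bp, and a 3-unit heat shock element lay 16 bp from the HSF1 summit and 117 bp from the MYC summit. Both ESR1 sites are far from any ESR1 start, 110510 bp or more downstream of the nearest, and the ESR1 promoters had no peak in any list.

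MSLN, which encodes the surface protein mesothelin, had the highest MYC fold enrichments of the 10 genes in both lists, although the pileup of PAX8 site 2 in MYC replicate 1 (91 fragments) was higher. Its site at chr16:760497-761344 covers the annotated start of the gene (chr16:760734-768865, plus strand). MYC replicate 1 gave a fold enrichment of 26.4 and replicate 2 gave 23.7, with a pileup of 84 fragments in each. These values differed little between the lists and stood above 94.9% and 96.7% of their peaks. The summits were 75 bp apart, 191 and 116 bp downstream of the canonical start and 158 and 83 bp downstream of the nearest MSLN start, in intron 1. The E-box printed above was 88 bp from the summit of replicate 1. No HSF1 peak was present, and the nearest one lay 44.6 kb outside the MSLN window in replicate 1 and 44.8 kb outside in replicate 2.

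EPCAM had MYC peaks alone, at 3 sites, of which 1 was called in both lists. EPCAM site 3, in intron 1, had fold enrichments of 11.2 and 9.81 with a pileup of 21 fragments in each list, above 43.3% and 42.0% of the peaks. The summits were 2 bp apart, 532 and 534 bp downstream of the canonical EPCAM start and 348 and 350 bp downstream of the nearest one, which counts as gene body by the promoter definition used here. The remaining sites were called in MYC replicate 1 alone. EPCAM site 1, at chr2:47344882-47345304, spans the most upstream annotated EPCAM start and that of the divergent long noncoding RNA gene EPCAM-DT. Its fold enrichment was 10.3 with a pileup of 15 fragments, and an E-box lay 106 bp from its summit. EPCAM site 2, at chr2:47354503-47354823, had a fold enrichment of 11.3 and a pileup of 23 fragments between the upstream and the canonical start. The fold enrichments of these sites lay on either side of that of the EPCAM site called in both lists. MYC replicate 1 is the longer list of the factor, with 25623 peaks against 13278 in MYC replicate 2.

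**Figure D3:**
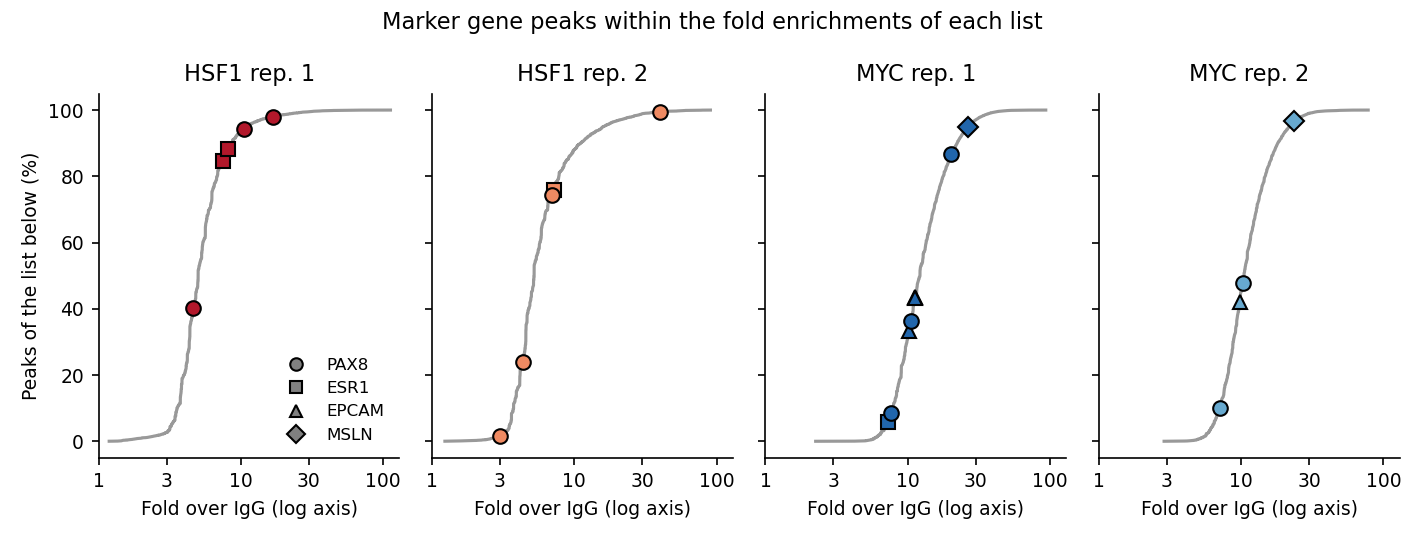
Peaks at the marker genes (symbols by gene) on the distribution of all fold enrichments of each list (gray line), with fold over IgG on a log axis and the percentage of the list's peaks below that fold on the vertical axis. Upstream PAX8 peaks lie at the top of both HSF1 lists and MSLN peaks near the top of both MYC lists, whereas most other MYC peaks at these genes lie in the lower part or the middle of their lists.

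SOX17, WT1, MECOM, MUC16, FOLR1 and EMX2 had no peak of either factor in any list. They make up 60% of the 10 genes, compared with 34.7% of all protein-coding genes without a peak in any list. Their windows were of very different lengths, from 7.96 kb at SOX17 to 585.3 kb at MECOM, the longest of the 10. MECOM had no HSF1 peak for a further 1058 kb and no MYC peak for a further 96.0 kb on either side of its window. For WT1 the nearest HSF1 peak was 299.3 kb outside the window and the nearest MYC peak 143.2 kb outside, and for EMX2 these distances were 194.5 kb and 160.9 kb. At the other 3 genes MYC peaks came closer. The nearest to FOLR1 was 2.86 kb outside its window on the upstream side, in MYC replicate 1, and the nearest to MUC16 was 2.74 kb outside on the upstream side, also in MYC replicate 1. With a RefSeq start of MUC16 further upstream, this MUC16 peak would lie inside the gene, so the 60% depends on the GENCODE gene model. Downstream of SOX17, the factor that accompanies PAX8 in this lineage, both MYC lists had a peak 8.98 and 9.08 kb past the gene end, with fold enrichments of 17.3 and 18.0. A gene without a peak is one at which no peak was called at this depth and threshold, which does not show that the factor was absent.

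Counted over genes, HSF1 was found at 2 of the 10 genes in each list, PAX8 and ESR1, compared with 16.5% of all protein-coding genes in replicate 1 and 12.3% in replicate 2. The same 2 genes had a peak in both HSF1 lists, where the share of all genes was 7.81%. MYC was found at 4 of the 10 genes in replicate 1, where the share of all genes was 63.3%, and at 3 in replicate 2, where it was 46.2%. PAX8, MSLN and EPCAM had a MYC peak in both lists, which is 30% of the 10 genes against 45.4% of all genes. With peaks at a −log10 p of at least 20, or with the longer list of each factor shortened to the length of the other, EPCAM was lost and 2 genes remained. One gene, PAX8, had peaks of both factors in both lists of each, 10% against 6.45% of all genes. With 10 genes, each gene moves a share by 10 percentage points, and the shares were not tested against the background.

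At promoters the counts were lower. No gene of the 10 had an HSF1 promoter summit in both lists, where the share of all genes was 2.74%, and MSLN was the 1 gene with a MYC promoter summit in both lists, where it was 31.8%. The summit of MYC replicate 1 counts through an MSLN start 164 bp downstream of it, and with the canonical start of each gene alone no gene was left. When a summit within 1 kb on either side of a start was counted, HSF1 gained PAX8, against 3.35% of all genes, and MYC gained EPCAM and PAX8 for 3 genes, against 39.3% of all genes. Both gains at PAX8 come from the start of the shorter transcript inside site 2. Over peaks, HSF1 replicate 1 had 0 promoter, 1 upstream and 4 gene body summits among its 5 peaks. HSF1 replicate 2 had 1 promoter, 1 upstream and 3 gene body summits among its 5 peaks. MYC replicate 1 had 2 promoter, 1 upstream and 5 gene body summits among 8 peaks, and MYC replicate 2 had 1, 1 and 2 among 4 peaks. By this definition gene body summits were the largest class in all 4 lists. With a promoter of 1 kb on either side of a start, promoter summits made up 50% of the MYC replicate 1 peaks and 75% of the MYC replicate 2 peaks, and gene body was no longer the largest class in either MYC list. With 2 lists per factor, the smallest p-value of a two-sided exact permutation test is 0.333, and no test was made.

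The windows of the 10 genes are long, with a median of 50.1 kb compared with 32.5 kb over all protein-coding genes. Per 100 kb of window, the HSF1 lists held 0.347 peaks each at the 10 genes, against 0.283 and 0.206 over the merged windows of all protein-coding genes. The MYC lists held 0.554 and 0.277 peaks per 100 kb at the 10 genes, against 1.4 and 0.793. These values rest on few genes. Of the 10 HSF1 peaks, 7 lie at PAX8, and MECOM and ESR1 make up 1.06 of the 1.443 Mb of window. Without these 2 longest windows, a setting chosen after seeing the data, the MYC lists held 1.84 and 1.05 peaks per 100 kb. These were above and no longer below the values over all genes, and the HSF1 lists held 0.79 and 1.05. No window was removed from the values over all genes, which still include long genes, so the sets are unlike.

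**Figure D4:**
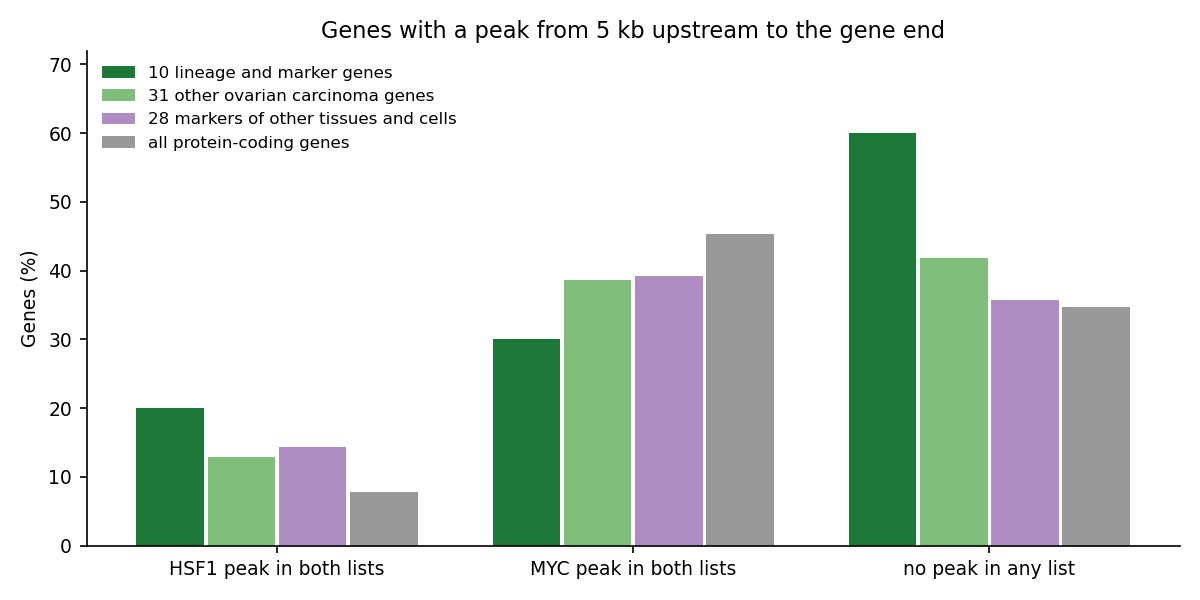
Percentage of genes with a peak from 5 kb upstream to the gene end in both HSF1 lists, in both MYC lists, and in none of the 4 lists, for the 10 marker genes, 31 other ovarian carcinoma genes, 28 markers of other tissues and cells, and all protein-coding genes. By the GENCODE gene models, the 10 genes have the highest share without any peak (60%) and the lowest share with MYC in both lists (30%). Each bar of theirs rests on 6 genes or fewer.

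A wider list of 31 other genes of ovarian carcinoma and its lineage gave 4 genes with HSF1 in both lists (12.9%), 12 with MYC in both lists (38.7%) and 13 without any peak (41.9%). The 4 genes with HSF1 were CLDN4, a tight junction claudin, and the keratin genes KRT7, KRT8 and KRT18, and these also had MYC in both lists. MYC in both lists was further found at the mucin gene MUC1, at the homeobox genes HOXA9 and HOXA10, and at genes that included CD24, CLDN6, PGR and PRAME. Among 28 genes that mark other tissues or cells, 4 had HSF1 in both lists (14.3%), 11 had MYC in both lists (39.3%) and 10 had no peak (35.7%). All of these lists are small, and their shares were not compared by a test.

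Heat shock elements were found near some HSF1 summits of replicate 1 and just beyond the same distance from some summits of replicate 2. The HSF1 peaks at PAX8 site 2 and ESR1 site 2 held no 3-unit element. Within 100 bp of the summit, 3 of the 5 HSF1 peaks of replicate 1 held a 3-unit element (PAX8 sites 3 and 4 and ESR1 site 1), against 6.51% of all peaks of that list. In replicate 2 it was 0 of 5, against 5.97% of all peaks. At PAX8 sites 3 and 4 the peaks of replicate 2 contain the same elements, 100 and 116 bp from their summits, and the element at the smaller distance extends past the 100 bp limit. Of the MYC peaks, 0 of 8 in replicate 1 and 1 of 4 in replicate 2 (PAX8 site 4) held a heat shock element at the summit, against 0.273% and 0.271% of all MYC peaks. An E-box lay within 100 bp of the summit in 1 of 8 MYC peaks of replicate 1 (MSLN) and in 0 of 4 of replicate 2, against 6.74% and 6.82% of all MYC peaks. In none of the 10 HSF1 peaks was an E-box that close. RefSeq promoter windows, which run over 300 bp around a start, were at hand for 6 of the genes (PAX8, MECOM, ESR1, EMX2, WT1 and MUC16). Of the 17 windows, 0 held a 3-unit heat shock element and 0 an E-box, compared with 0.49% and 7.26% of all 35116 such windows. MSLN and EPCAM, whose MYC peaks over a start (MSLN site 1 and EPCAM site 1) hold an E-box, are not among these genes. A 2-unit element was in 6 windows, compared with 13.5%, all of them at ESR1, WT1 and MUC16.

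**Figure D5:**
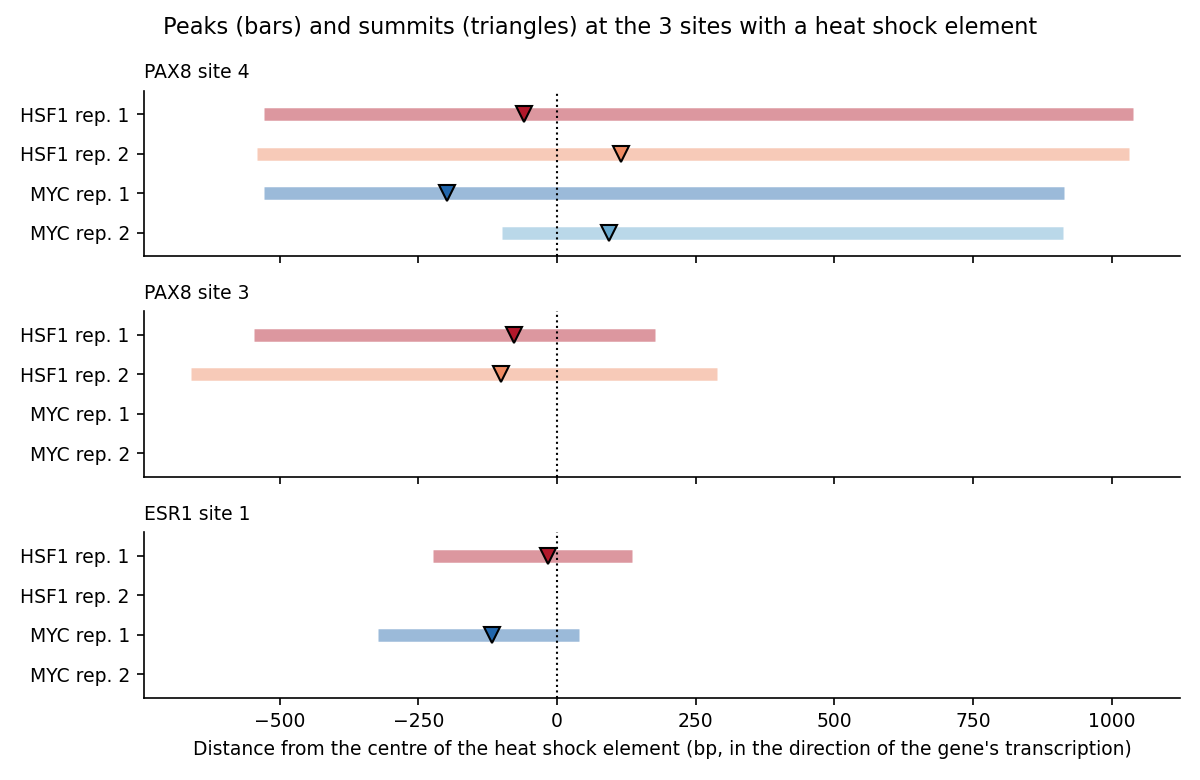
Position of peaks (bars) and summits (triangles) relative to the centre of the heat shock element, in bp along the direction of transcription of the gene, for the 3 sites that hold a 3-unit element, 1 row per list (an empty row is a list without a peak). The element lies inside every peak drawn, and the HSF1 summits are 16 to 116 bp from it.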

How the data were processed

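Peak lists of 2 HSF1 and 2 MYC CUT&RUN libraries were analysed. The authors used 1 IgG library, which has no list of its own, as background for all of them. The authors aligned reads to GRCh38/hg38 with Bowtie 2 and called each library separately with MACS 2.2.9.1, at p-value thresholds of 1e-04 (HSF1) and 1e-10 (MYC), with the larger library of each antibody and IgG pair scaled to the smaller. Per the labels, base calls were made with bcl2fastq 2.20.0. Deposited values per peak are the pileup (a coverage signal), the −log10 p-value and the fold enrichment (a ratio to IgG). The deposited q-values were not used. The headers give 8265647 to 10084407 antibody fragments after duplicate removal and 9306942 IgG fragments, and the lists hold 6421 and 4459 HSF1 and 25623 and 13278 MYC peaks on chromosomes 1 to 22, X and Y. The headers name the IgG library as a second replicate, whereas the labels list 1 control.

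Peaks were assigned to genes by GENCODE 44, and motifs were read from the GRCh38 sequence, with Python 3.11.15, pandas 2.3.3, numpy 2.4.6 and pysam 0.24.0. Promoter sequences come from the RefSeq table of GRCh38. Figures were drawn with matplotlib 3.10.9. No count model or test was used, since the lists hold no read counts. The 10 genes and the other lists were chosen with earlier results of these data known. All 10 genes are named. A peak is described singly if it recurs in the other list of its factor or is the strongest of its gene in a list. The remaining peaks were added after their values were seen, so that every site is given. In 20 simulated runs, assignment recovered all of 200 planted peaks. Each was planted inside a gene window, so this checks the counting code alone. Alternatives covered thresholds, list length, window, promoter definition, overlap and each replicate left out. The sequence of 1 site and the name of 1 gene of the wider list are not reported here.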

Additional observations from a re-analysis of the deposited data

How the results depend on the processing

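The 198 values came from 17 alternative settings and 2 more that were chosen after seeing the data. Of these values, 168 stayed within the limit set for a change and 30 moved. The limit was a factor for counts, the Wilson interval for shares and the SD of the lists for peaks per 100 kb. Changes of direction were not scored. The share of HSF1 replicate 2 peaks at promoters went from 20% to 0% with HSF1 peaks at a −log10 p of at least 10, with all peaks at 20 or more, at a fold of at least 5, with the canonical start alone, and with a peak required to cover a start (1 of the added settings), since it rests on 1 peak. The number of HSF1 replicate 2 peaks went from 5 to 3 at a −log10 p of 10 or a fold of 5, and to 1 at a −log10 p of 20. At 20, HSF1 replicate 1 had 2 peaks, MYC replicate 1 had 5 and MYC replicate 2 had 2. At this threshold 1 gene (PAX8) had HSF1 in both lists and 0 genes an overlap of both factors. At PAX8 site 4 the MYC replicate 2 peak reaches 18.4, and at PAX8 site 2 the HSF1 peaks reach 13.2 at most. With lists of equal length, MYC replicate 1 had 3 peaks in place of 8. Without the 2 longest windows, the other added setting, peaks per 100 kb went to 0.79 and 1.05 for HSF1 and to 1.84 and 1.05 for MYC. The MYC values thereby went from below to above the values over all genes, from which no window was removed. Promoters of 1 kb or 3 kb on either side gave 1 gene for HSF1, 3 for MYC and a promoter share of 75% in MYC replicate 2. The canonical start alone gave 0 genes for MYC and shares of 0% in both MYC lists, and a covered start gave 2 genes. With a replicate left out, HSF1 promoter genes ranged from 0 to 1 (1 without HSF1 replicate 1) and MYC promoter genes from 1 to 2 (2 without MYC replicate 2). No paired analysis was possible because no result comes from a test and the labels do not tie equal replicate numbers to a shared culture. A weak site can be missed at this depth, and the strongest sites (PAX8 site 4 for HSF1, MSLN for MYC) were kept at every threshold tried.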

Other observations

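Past the PAX8 window, HSF1 replicate 1 had a further peak 0.988 kb outside it on the upstream side, with a fold enrichment of 4.69 and a pileup of 11 fragments. On the other side, 6.04 to 6.55 kb past the PAX8 gene end, 3 lists had a peak: HSF1 replicate 1 with a fold of 8.19, MYC replicate 1 with 18.1 and MYC replicate 2 with 19.7.

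The gene model decides whether MUC16 has a peak. RefSeq places a MUC16 start at chr19:9065751, upstream of the GENCODE gene start at 9010390. The MYC replicate 1 peak at chr19:9018130-9018405 (fold 10.2, pileup 19) lies between these starts, outside the window used here. Downstream of MUC16, peaks 15.8 to 16.0 kb past the gene end were called in HSF1 replicate 1 (fold 7.05), MYC replicate 1 (27.0) and MYC replicate 2 (19.7).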
